A study of Mus musculus with 10 samples.

Results

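The genes described here are 37 genes of glycolysis and gluconeogenesis: the carriers that bring glucose into the cell, the enzymes that turn it into pyruvate and lactate, the kinases that hold back pyruvate oxidation, and the enzymes that run the route in reverse. They were chosen by symbol from textbook pathway membership, and all 37 were found among the 24525 genes of the expression table. Of the 37, 33 averaged 1 FPKM or more over the 10 libraries and were tested. The other 4, Slc2a2, Eno2, Fbp1 and G6pc, stayed below that level and are described by their values. FPKM is a fragment count divided by transcript length and by the library's mapped total. It puts genes and samples on a common scale, but comparisons between samples also depend on how libraries are scaled.

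The samples were 5 colorectal tumours and 5 pieces of adjacent colon, all taken 10 weeks after AOM from male C57BL/6N mice. The labels give the mice an age of 7 weeks and a weight of 18 to 20 g without saying when, which for tissue taken 10 weeks after AOM cannot be the age at sampling. Azoxymethane (AOM) is a mutagen, given here into the peritoneum at 12.5 mg/kg, and dextran sulfate sodium (DSS) injures the colonic lining. DSS began 1 week after AOM, in 3 cycles of 3 weeks, with 5 days of 2% DSS and 16 days of plain water in each. Both groups therefore came from colon exposed to both agents. Of the 15 mice described, 12 received AOM and DSS and 3 neither, and no label assigns a library used here to one of the 3. Every source label carries the same mouse number, 1, whereas the design text has mice in the plural and calls the normal tissue matched. The titles number each group 1 to 5. Which libraries come from the same animal is therefore not settled by the labels, and p-values measure only the spread between these samples.

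Glycolysis converts glucose to pyruvate and yields ATP without oxygen. Cancer cells often run it fast and release lactate even when oxygen is present, and the transcription factors HIF1 and MYC induce many of its genes. Most steps have several isozymes, encoded by separate genes that differ in tissue, affinity and regulation. Colonocytes at the gut surface burn butyrate from bacterial fermentation as a main fuel. Gluconeogenesis shares the reversible steps and bypasses the irreversible ones with its own enzymes, and is a pathway of liver and kidney, with PEP carboxykinase and fructose bisphosphatase also found in intestine.

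Promoter sequences of 4 of the genes are shown because they hold the textbook recognition letters of HIF and MYC in different number, in genes that were higher or lower in tumours. Each is the RefSeq sequence of the 250 bases before a gene start in GRCm38.p6, 5′ to 3′ on the strand of the gene. Capitals mark the core of the hypoxia response element, ACGTG or GCGTG, and the E-box CACGTG, on either strand. Read from the other strand, the first core is CACGT and the second is CACGC. Each E-box contains the first core on both strands and is therefore also counted as 2 cores. Ldha, lower in tumours, has 5 cores and 2 E-boxes at chr7:46845554-46845803 (+ strand). Hk2, also lower in tumours, has 2 cores at chr6:82774455-82774704 (- strand). The downstream start of Pfkfb3, a gene higher in tumours, has 3 cores and 1 E-box at chr2:11502091-11502340 (- strand). Pck1, the member with the largest fall, has no match at chr2:173152823-173153072 (+ strand).
Ldha: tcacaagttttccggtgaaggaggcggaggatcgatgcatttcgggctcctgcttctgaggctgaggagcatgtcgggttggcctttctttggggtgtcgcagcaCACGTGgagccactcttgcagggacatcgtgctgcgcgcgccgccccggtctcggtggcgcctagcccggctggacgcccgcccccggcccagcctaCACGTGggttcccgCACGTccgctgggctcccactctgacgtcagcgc
Hk2: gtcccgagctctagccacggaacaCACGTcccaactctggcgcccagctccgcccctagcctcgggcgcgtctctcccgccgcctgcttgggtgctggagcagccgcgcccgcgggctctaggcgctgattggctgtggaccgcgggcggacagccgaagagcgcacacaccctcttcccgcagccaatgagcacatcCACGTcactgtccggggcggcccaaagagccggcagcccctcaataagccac
Pfkfb3: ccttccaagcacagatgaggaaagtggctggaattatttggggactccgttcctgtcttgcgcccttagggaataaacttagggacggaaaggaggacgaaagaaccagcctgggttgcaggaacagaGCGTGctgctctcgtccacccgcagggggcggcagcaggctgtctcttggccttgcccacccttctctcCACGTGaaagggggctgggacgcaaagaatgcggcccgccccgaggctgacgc
Pck1: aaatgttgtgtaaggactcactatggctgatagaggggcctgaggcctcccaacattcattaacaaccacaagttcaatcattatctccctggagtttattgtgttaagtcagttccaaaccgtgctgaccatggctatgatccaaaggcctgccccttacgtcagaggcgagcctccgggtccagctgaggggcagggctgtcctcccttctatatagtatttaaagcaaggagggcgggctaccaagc

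RefSeq entries were found for 35 of the 37 genes, with 55 promoters, and 37 of these (67.3%) held at least 1 core, against 9459 of 21198 promoters of all genes (44.6%). Some of the 55 overlap within a gene, as for Aldoa, Eno1 and Pfkm, and so hold the same core. The comparison took all genes, expressed or not. CACGTG was in 6 of the 55 (10.9%), against 6.78% of all promoters. Counted by gene, with a core in any of its promoters, it was 11 of 11 members with an entry that were higher in tumours. It was 13 of 15 that were lower, where Gpi1 and Pck1 had none, and 3 of 5 that did not pass. No share by gene was computed over all genes, so these counts cannot be set against the 44.6% of promoters. These letters therefore occurred in members of both directions. A match is a description of the sequence and not evidence of a bound site.

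Totals were 462009 to 484712 FPKM per library, and 11981 to 13171 genes per library reached 1 FPKM. The table gives no depth. It was estimated at 21600000 to 27000000 fragments per library from the steps between low values, of which 76.3% to 83.1% lay within 0.2 of a whole fragment. Epithelial markers were present in every library, with 7 of 8 lower and 1 higher in tumours and summed levels of 3684 to 5880 FPKM in tumours against 6735 to 8369 FPKM in adjacent samples. Absorptive colonocyte markers were lower in 7 of 8, with sums of 150.0 to 1008 FPKM in tumours and 2994 to 4896 FPKM in adjacent samples, and tumours 2 and 4, at 1008 and 527 FPKM, stood above the other tumours. Fibroblast markers were higher in 7 of 7 (586 to 986 against 76.5 to 196 FPKM), endothelial markers in 6 of 6 (41.3 to 64.4 against 11.3 to 24.2 FPKM) and leukocyte markers in 6 of 8, with 1 lower (453 to 774 against 75.7 to 232 FPKM). Neutrophil markers were higher in 6 of 7 with 1 lower (183 to 465 against 108 to 352 FPKM), and smooth muscle markers in 2 of 6 (88.2 to 146 against 25.9 to 79.2 FPKM). Red blood cell markers summed to 57.1 to 558 FPKM in tumours and 43.1 to 380.4 FPKM in adjacent samples. Enteric neuron and glia markers summed to 4.77 to 17.8 FPKM in tumours and 6.04 to 15.4 FPKM in adjacent samples, and adipocyte markers to 0.11 to 1.65 and 1.61 to 3.52 FPKM. With medians subtracted, as after quantile normalization, 5 leukocyte and 5 endothelial markers were higher. The part of these markers in the results below was not tested, and in such bulk samples fewer cells of a type and less RNA per cell cannot be told apart.

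Tumours had lower levels than adjacent tissue of the main glucose carrier Slc2a1, the hexokinases Hk1 and Hk2, the isomerase Gpi1, the aldolase Aldoa and the gluconeogenic Pck1 and Fbp2. The isozymes Ldhb, Hk3, Pfkfb3 and Slc2a3 were higher in tumours. Of the 33 members tested with limma, 12 were higher and 15 lower at an adjusted p of 0.05, and 6 did not pass. Among all 13016 genes tested, 57.2% were higher, 19.3% lower and 76.5% either, against 36.4%, 45.5% and 81.8% of the members tested. The median log2 change of these members was -0.09, against 0.35 for all genes tested. Of the 12 called higher, Slc2a3, Hk3 and Pfkfb1 averaged below 1 FPKM in adjacent samples and passed the expression filter through their tumour values.

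The counts depend on how libraries are scaled, and the median gene was itself 0.35 higher in tumours on the log2 scale. With each library's median subtracted, 4 members were higher and 19 lower, against 34.5% and 33.3% of all genes, or 67.7% either way. After quantile normalization 8 members were higher and 15 lower, against 36.6% and 30.2% of all genes, or 66.8% either way. Under all 3 scalings, 17 members kept their call in the same direction: Slc2a3, Hk3, Pfkfb3 and Ldhb were higher, and Slc2a1, Hk1, Hk2, Gpi1, Pfkp, Pfkfb2, Pfkfb4, Aldoa, Eno3, Pdk1, Pdk2, Pck1 and Fbp2 were lower. Of all genes tested, 49.8% kept their call in this way, 30.9% higher and 19.0% lower. Among the 4 members that stayed higher, Slc2a3 and Hk3 passed the expression filter through their tumour values. Changes of at least 2-fold past the threshold were seen in 10 of the 33 members (4 higher and 6 lower), against 23.3% of all genes tested. The values of the 2 groups did not overlap for 17 of the 33 members, 6 higher and 11 lower, against 60.9%, 46.5% and 14.3% of all genes. Without tumours 2 and 4, an alternative chosen after seeing the data, 11 members were higher and 14 lower, against 57.7% and 20.0% of all genes. With the replicate number as a block, 11 members were higher and 16 lower, against 57.9% and 19.5% of all genes.

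**Figure D1:**
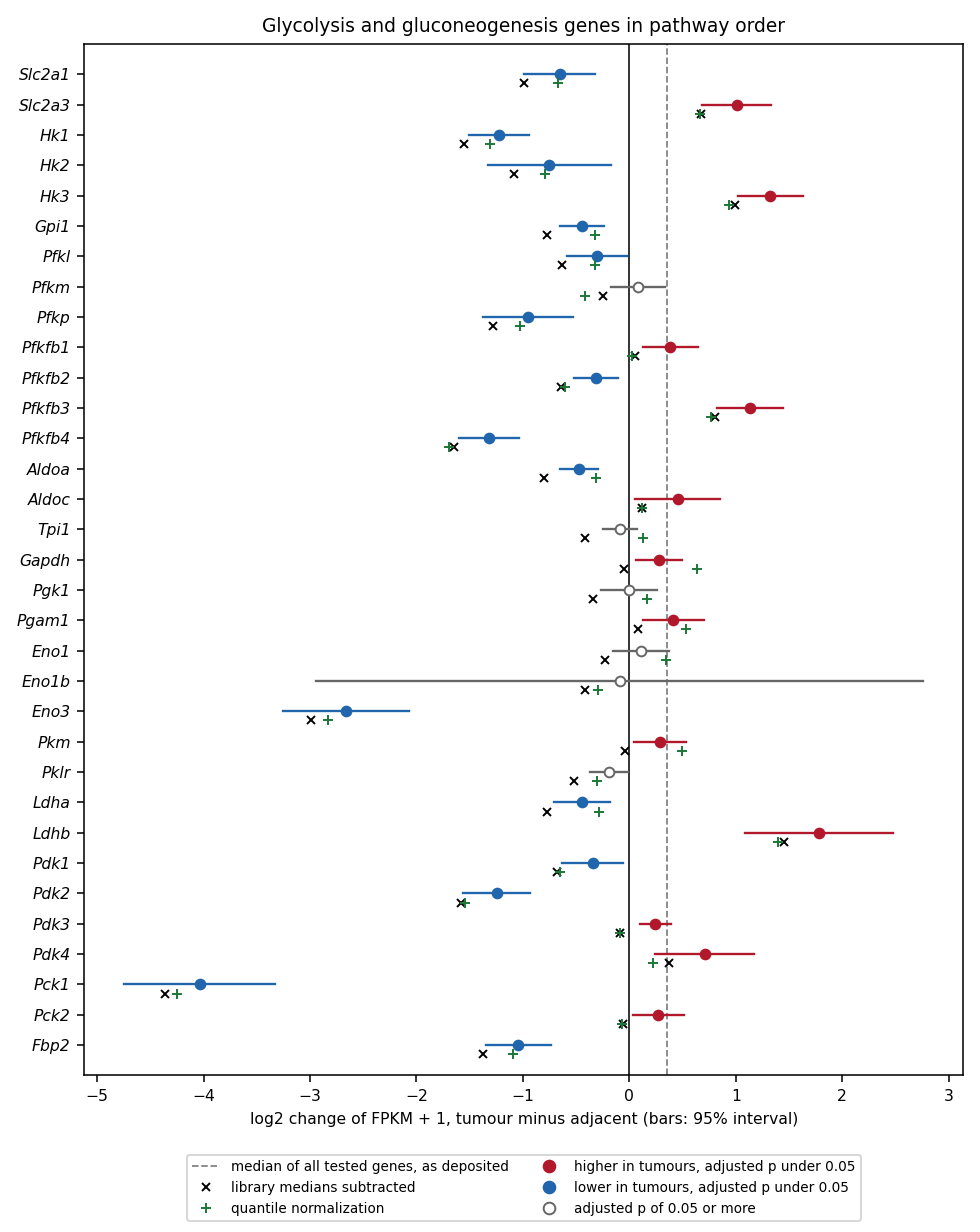
Log2 change of FPKM + 1, tumour minus adjacent, for the 33 members tested, in pathway order from top to bottom. Circles are limma estimates with 95% intervals, filled red where higher and blue where lower in tumours at an adjusted p under 0.05 and open otherwise; crosses and plus signs give the same change with library medians subtracted and after quantile normalization, and the dashed line is the median of all genes at 0.35. Pck1, at -4.04, and Eno3, at -2.66, lie farthest to the left, and Ldhb, at 1.78, farthest to the right.

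Of the glucose carriers, the abundant one was lower in tumours and the scarce one higher. Slc2a1 encodes GLUT1, the widely expressed basal glucose carrier (chromosome 4, 119108745 to 119137330, GRCm38). It had 49.8, 78.9, 47.2, 66.9 and 57.6 FPKM in tumours 1 to 5, against 86.0, 108.5, 82.1, 82.6 and 113 FPKM in adjacent samples 1 to 5. Every tumour lay below every adjacent sample, with tumour 2 nearest to them. The means were 60.1 ± 12.99 and 94.5 ± 15.1 FPKM (SD, n = 5 each), a log2 difference of -0.66 (SE 0.15, limma adjusted p = 0.00241). Slc2a3, which encodes the high-affinity carrier GLUT3 of neurons and leukocytes, had 1.44, 1.76, 2.46, 2.02 and 2.39 FPKM in the tumours, against 0.47, 0.29, 0.55, 0.28 and 0.93 FPKM in the adjacent samples. It rose by 1.01 (SE 0.15, limma adjusted p = 0.000124), and stayed far below the level of Slc2a1 in every library. Slc2a3 averaged 0.504 FPKM in adjacent samples and passed the expression filter through its tumour values. Slc2a2, the low-affinity carrier GLUT2 of liver and small intestine, was at 0.07 to 0.27 FPKM in tumours and 0 to 0.10 FPKM in adjacent samples.

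Both main hexokinases were lower in tumours and the minor one was higher. Hexokinase phosphorylates glucose and so keeps it in the cell. Hk1, the housekeeping isozyme (chromosome 10, 62268855 to 62379920), had 26.0, 37.4, 24.2, 33.3 and 26.3 FPKM in tumours 1 to 5, against 67.8, 66.3, 62.0, 84.1 and 67.8 FPKM in adjacent samples 1 to 5. The groups were far apart, with means of 29.4 ± 5.66 and 69.6 ± 8.44 FPKM and a log2 difference of -1.23 (SE 0.13, limma adjusted p = 2.47e-05). Hk2, the inducible isozyme of muscle and many cancers, had 40.8, 88.0, 38.0, 53.9 and 31.1 FPKM in the tumours, against 72.1, 99.3, 91.5, 86.0 and 57.5 FPKM in the adjacent samples. Here the groups overlapped, because tumour 2 stood above 3 of the 5 adjacent samples. Hk2 fell by 0.75 on the log2 scale (SE 0.26, limma adjusted p = 0.022), and the adjusted p was 0.0523, 0.0525 and 0.0529 without tumour 5, tumour 3 or adjacent sample 2. Without tumour 2 it was -0.97 (limma adjusted p = 0.000826).

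Hk3 encodes a hexokinase found mainly in myeloid cells. Its level was 2.85, 2.86, 3.36, 3.60 and 2.35 FPKM in tumours 1 to 5 and 0.63, 0.35, 0.75, 0.34 and 0.96 FPKM in adjacent samples 1 to 5, a log2 difference of 1.33 (SE 0.14, limma adjusted p = 2.48e-05). Hk3 averaged 0.606 FPKM in adjacent samples and passed the expression filter through its tumour values. Of the 8 leukocyte markers, Lyz2, Csf1r, Itgam, Cd68, Adgre1 and Ptprc were higher in tumours, Itgam averaging 9.62 against 1.99 FPKM. The B cell gene Cd79a was lower and the T cell gene Cd3e did not pass. A link between Hk3 and these markers was not tested. Gpi1, the isomerase that makes fructose 6-phosphate, had 157 to 196 FPKM in tumours (median 174) against 212 to 281 FPKM in adjacent samples (median 239.7). It fell by 0.44 (SE 0.09, limma adjusted p = 0.00118) without overlap of the groups, and 19.3% of its 50-base stretches also occur in other annotated transcripts.

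Phosphofructokinase commits the sugar to glycolysis, and its isozymes did not move alike. Pfkp, the platelet isozyme (chromosome 13, 6579874 to 6649060), had 37.6, 52.3, 26.3, 35.5 and 22.4 FPKM in tumours 1 to 5, against 60.8, 70.0, 60.2, 66.5 and 71.7 FPKM in adjacent samples 1 to 5. The highest tumour, again tumour 2, lay below the lowest adjacent sample, and the log2 change was -0.96 (SE 0.19, limma adjusted p = 0.000971). Pfkl, the liver isozyme, averaged 53.1 ± 10.2 FPKM in tumours and 65.2 ± 8.09 FPKM in adjacent samples (SD, n = 5 each), with overlap. Its change of -0.30 passed narrowly (SE 0.13, limma adjusted p = 0.0487) and the call was lost when any library other than tumour 5 or adjacent sample 3 was left out, with adjusted p of 0.0651 to 0.114. It was also lost after quantile normalization (adjusted p = 0.0554), with no filter on low genes (0.0647) and with plain empirical Bayes (0.0542). Pfkm, the muscle isozyme, averaged 3.37 ± 0.563 FPKM in tumours and 3.12 ± 0.411 FPKM in adjacent samples, a change of 0.08 (95% interval -0.17 to 0.33, limma adjusted p = 0.52) as deposited. It passed as lower under both other scalings, at -0.25 with medians subtracted (adjusted p = 0.0491) and -0.42 after quantile normalization (0.00666).

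The PFKFB enzymes set the level of fructose 2,6-bisphosphate, the strongest activator of phosphofructokinase, and its isozymes moved in opposite directions. Pfkfb3, whose enzyme has far more kinase than phosphatase activity (chromosome 2, 11471430 to 11554071), had 14.8, 15.7, 12.6, 12.2 and 14.5 FPKM in tumours 1 to 5, against 4.39, 7.17, 7.69, 4.77 and 5.57 FPKM in adjacent samples 1 to 5. Every tumour was above every adjacent sample, and the log2 change was 1.13 (SE 0.14, limma adjusted p = 5.17e-05). Pfkfb4 (chromosome 9, 108988272 to 109032236) went the other way, with 4.17, 6.44, 4.20, 5.73 and 4.46 FPKM in the tumours against 11.6, 13.3, 15.6, 16.0 and 12.9 FPKM in the adjacent samples. It fell by 1.32 (SE 0.13, limma adjusted p = 2.11e-05), and tumours 2 and 4 were the highest of the tumours. Pfkfb2, the heart isozyme, averaged 13.2 ± 1.88 FPKM in tumours and 16.6 ± 0.990 FPKM in adjacent samples, a change of -0.31 (SE 0.10, limma adjusted p = 0.0113). Pfkfb1, the liver and muscle isozyme, averaged 1.30 ± 0.286 and 0.758 ± 0.173 FPKM, a change of 0.39 (SE 0.12, limma adjusted p = 0.0109) that was 0.06 with medians subtracted and 0.02 after quantile normalization and then missed the threshold. Pfkfb1 also passed the expression filter through its tumour values.

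**Figure D2:**
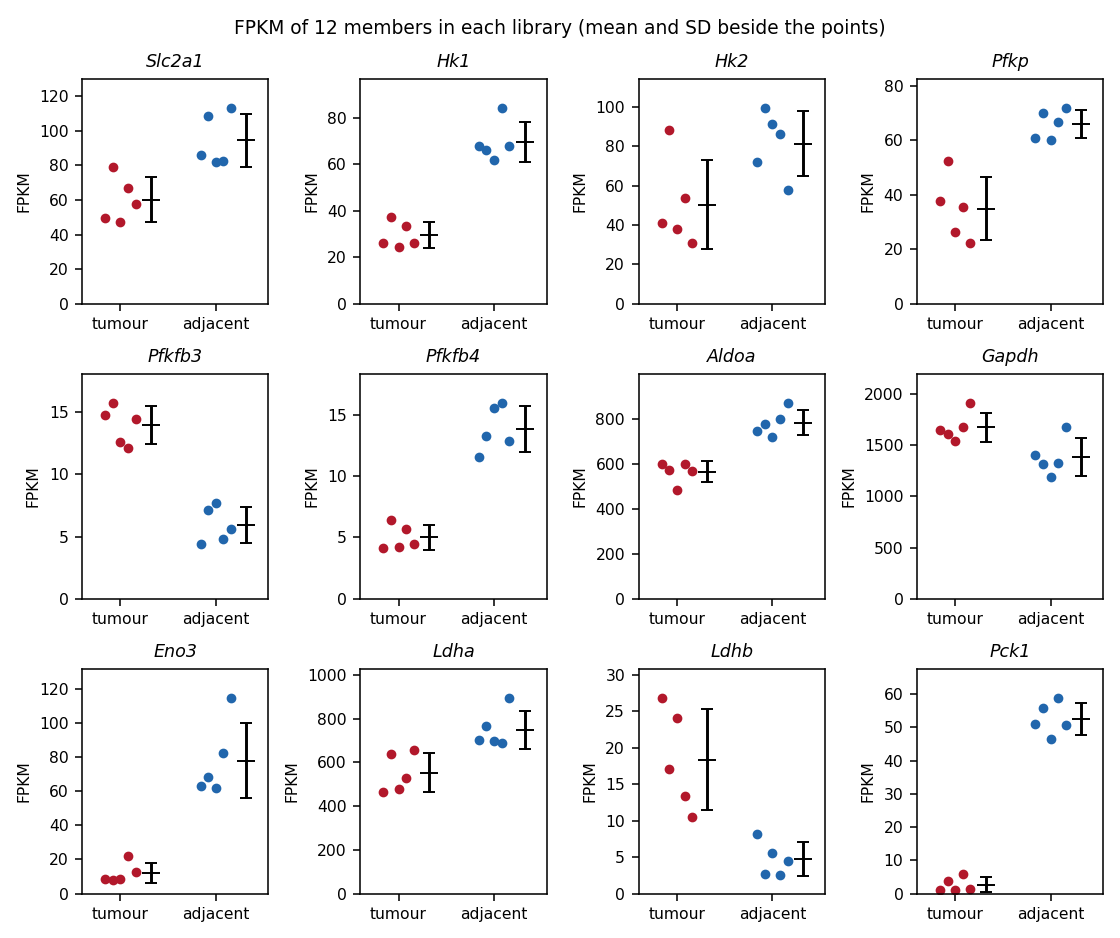
FPKM of 12 members in each library, tumours in red on the left and adjacent samples in blue on the right of each panel, libraries 1 to 5 from left to right within a group, with mean and SD beside the points and linear axes from 0. The groups do not overlap in 10 of the panels; in Hk2 tumour 2 reaches 88.0 FPKM and in Gapdh adjacent sample 5 reaches 1683 FPKM.

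In the middle of the pathway the aldolase step was lower in tumours. In the values as deposited, Tpi1 and Pgk1 differed little, while Gapdh and Pgam1 passed as higher. Aldoa, the main aldolase, which splits fructose 1,6-bisphosphate (chromosome 7, 126795234 to 126800994), had 597, 572, 484, 600.4 and 565 FPKM in tumours 1 to 5, against 747, 776, 719.9, 798 and 869 FPKM in adjacent samples 1 to 5. The groups were separate, with a log2 difference of -0.47 (SE 0.08, limma adjusted p = 0.000306). Aldoc, the brain isozyme, had 10.3 to 16.7 FPKM in tumours (median 15.2) and 8.06 to 15.3 FPKM in adjacent samples (median 9.05). Its change of 0.45 (SE 0.18, limma adjusted p = 0.0393) lost its call with medians subtracted, after quantile normalization, and when tumour 1, 4 or 5 or adjacent sample 1, 2, 3 or 4 was left out (adjusted p of 0.0707 to 0.0902). With no filter on low genes its adjusted p was 0.0540. Tpi1, which interconverts the triose phosphates, averaged 360.2 ± 26.9 FPKM in tumours and 382 ± 25.5 FPKM in adjacent samples, a change of -0.09 (95% interval -0.25 to 0.07, limma adjusted p = 0.291). With medians subtracted Tpi1 was -0.42 (adjusted p = 0.000332), and after quantile normalization 0.13.

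Gapdh, which makes the first high-energy intermediate and is often used as a reference gene, was the most abundant member. It had 1647, 1610.0, 1541, 1677 and 1913 FPKM in tumours 1 to 5, against 1408, 1319, 1186, 1331 and 1683 FPKM in adjacent samples 1 to 5. All tumours except tumour 5 lay below adjacent sample 5, and all lay above the other 4 adjacent samples. The change of 0.28 (SE 0.10, limma adjusted p = 0.0221) was -0.049 with medians subtracted and 0.64 after quantile normalization, and its adjusted p was 0.0527 without adjacent sample 3 and 0.0537 without tumour 5. Pgk1, the first ATP-forming enzyme, averaged 284 ± 38.9 FPKM in tumours and 286 ± 44.5 FPKM in adjacent samples, a change of -0.01 (95% interval -0.27 to 0.26). With medians subtracted Pgk1 passed as lower, at -0.34 (adjusted p = 0.0256), and after quantile normalization it was 0.17 and did not pass. Pgam1, the mutase that follows, averaged 213 ± 34.2 and 160.0 ± 25.2 FPKM, a change of 0.41 (SE 0.13, limma adjusted p = 0.0132) that was 0.08 with medians subtracted, where it did not pass, and 0.53 after quantile normalization (adjusted p = 0.008). These values are uncertain because 82.5%, 68.0% and 41.5% of the 50-base stretches of Gapdh, Pgk1 and Pgam1 occur in other annotated transcripts, with the handling of shared reads not given in the sources used here.

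Among the enolases, which make phosphoenolpyruvate, the abundant Eno1 differed little as deposited while Eno3 fell strongly. Eno3, the muscle-type enolase (chromosome 11, 70653125 to 70662513), had 8.57, 7.96, 8.81, 21.9 and 12.5 FPKM in tumours 1 to 5, against 62.7, 68.1, 61.6, 82.2 and 114 FPKM in adjacent samples 1 to 5. The highest tumour, tumour 4, was well below the lowest adjacent sample, and the log2 change was -2.66 (SE 0.27, limma adjusted p = 2.48e-05). Striated muscle markers were nearly absent from both groups: of 7, 2 were at 0 in every library and 6 averaged below 1 FPKM, and Ckm, the creatine kinase of muscle, averaged 0.072 FPKM in tumours and 0.042 FPKM in adjacent samples. Their sum was at most 6.68 FPKM in tumours and 8.57 FPKM in adjacent samples, nearly all from Acta1. Acta1 averaged 3.48 ± 2.31 FPKM in tumours and 5.18 ± 1.84 FPKM in adjacent samples, and did not pass as deposited (limma adjusted p = 0.15). It passed as lower at -0.92 with medians subtracted and at -1.01 after quantile normalization.

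Eno1 averaged 506 ± 85.4 FPKM in tumours and 468 ± 54.8 FPKM in adjacent samples, a change of 0.11 (95% interval -0.16 to 0.37, limma adjusted p = 0.432) that was -0.23 with medians subtracted and 0.34 after quantile normalization, where it passed (adjusted p = 0.0178). Tumour 2, at 649 FPKM, was the highest of all libraries for this gene. Eno1b varied without regard to group, with 3.90, 0.64, 11.7, 51.4 and 36.8 FPKM in tumours 1 to 5, against 4.71, 90.0, 13.5, 0 and 35.5 FPKM in adjacent samples 1 to 5. It shares 75.3% of its 50-base stretches with Eno1, so its value depends on how reads were split between the pair. Eno2, the neuronal enolase, had 0.93 to 1.69 FPKM in tumours and 0.29 to 0.86 FPKM in adjacent samples, below the filter, and in a fit without the filter its change was 0.57 (limma adjusted p = 0.00202).

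Pyruvate kinase yields pyruvate and ATP. Pkm, which encodes the M1 and M2 forms by alternative splicing, had 637, 643, 707, 617 and 818 FPKM in tumours 1 to 5, against 537, 565, 498, 506 and 705 FPKM in adjacent samples 1 to 5. Adjacent sample 5 reached into the range of the tumours. The change was 0.29 as deposited (SE 0.11, limma adjusted p = 0.036), -0.043 with medians subtracted and 0.50 after quantile normalization (adjusted p = 0.00216). The call was also lost when adjacent sample 1, 2, 3 or 4 or tumour 3 or 5 was left out (adjusted p of 0.0563 to 0.0854). The gene-level values do not separate M1 from M2, and 34.4% of the gene's 50-base stretches occur in other transcripts. Pklr, the liver and red cell isozyme, averaged 35.6 ± 4.41 FPKM in tumours and 40.7 ± 1.48 FPKM in adjacent samples, a change of -0.19 just short of the threshold (95% interval -0.37 to -0.01, limma adjusted p = 0.0501). It passed as lower with medians subtracted, at -0.52 (adjusted p = 0.000357), after quantile normalization, at -0.30 (0.00667), and with the replicate number as a block (0.0433). Without tumour 4, the highest tumour for Pklr, the change was -0.26 (limma adjusted p = 0.00704).

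The lactate dehydrogenases moved in opposite directions. Ldha encodes the subunit that favours making lactate (chromosome 7, 46842274 to 46855627). It had 465, 638, 479, 527 and 655 FPKM in tumours 1 to 5, against 702, 766, 697, 688 and 894 FPKM in adjacent samples 1 to 5, with every tumour below every adjacent sample. The log2 change was -0.45 (SE 0.12, limma adjusted p = 0.00541), and -0.29 after quantile normalization, where it missed the threshold (adjusted p = 0.0602). Ldhb encodes the subunit that favours the use of lactate (chromosome 6, 142490249 to 142507957). Its level was 26.8, 17.1, 24.1, 13.3 and 10.5 FPKM in the tumours and 8.20, 2.69, 5.50, 2.54 and 4.51 FPKM in the adjacent samples, again without overlap. The change of 1.78 (SE 0.31, limma adjusted p = 0.000469) was the largest rise among the members tested on the log2(FPKM + 1) scale. As a ratio of means Ldhb was 3.92 times as high in tumours, against 4.96 for Hk3 and 4.00 for Slc2a3, both scarcer. Ldha stayed far more abundant in all 10 libraries, and 27.0% of the 50-base stretches of Ldhb also occur in 1 other annotated gene.

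The pyruvate dehydrogenase kinases, which switch off the entry of pyruvate into the tricarboxylic acid cycle, were split. Pdk2 (chromosome 11, 95026258 to 95041371) had 9.93, 8.90, 7.50, 11.1 and 9.15 FPKM in tumours 1 to 5, against 17.8, 22.3, 21.6, 25.9 and 31.2 FPKM in adjacent samples 1 to 5. The groups were separate and the log2 change was -1.25 (SE 0.14, limma adjusted p = 3.54e-05). Pdk1, a known HIF1 target, averaged 11.5 ± 1.98 FPKM in tumours and 14.8 ± 2.47 FPKM in adjacent samples, a change of -0.35 (SE 0.13, limma adjusted p = 0.031) whose call was lost without tumour 1, 3 or 4 or adjacent sample 2, 3 or 5 (adjusted p of 0.0586 to 0.0733). Pdk3 varied little within groups, at 12.1 to 13.03 FPKM in tumours and 9.45 to 11.9 FPKM in adjacent samples. Its change of 0.24 (SE 0.07, limma adjusted p = 0.00608) was smaller than the shift of the median gene, and -0.086 with medians subtracted and -0.085 after quantile normalization. Pdk4, the kinase induced by fasting and fatty acids, averaged 2.95 ± 0.933 and 1.43 ± 0.653 FPKM, a change of 0.71 (SE 0.21, limma adjusted p = 0.0106) that missed the threshold under both other scalings.

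The largest change of any member was the fall of Pck1, the cytosolic PEP carboxykinase that starts gluconeogenesis (chromosome 2, 173153073 to 173159274). Pck1 had 1.17, 3.79, 1.00, 5.97 and 1.50 FPKM in tumours 1 to 5, against 50.9, 55.9, 46.3, 58.8 and 50.6 FPKM in adjacent samples 1 to 5. The adjacent samples were close to each other, and among the tumours numbers 2 and 4 held the most, as they did for the colonocyte marker sum. The means were 2.69 ± 2.15 and 52.5 ± 4.87 FPKM (SD, n = 5 each), a log2 difference of -4.04 (SE 0.32, limma adjusted p = 1.4e-05), and -4.59 without tumours 2 and 4. Pck2, the mitochondrial form, did not share this fall: it averaged 11.6 ± 1.74 FPKM in tumours and 9.44 ± 1.06 FPKM in adjacent samples. Its change of 0.27 (SE 0.11, limma adjusted p = 0.0406) was -0.061 with medians subtracted and -0.071 after quantile normalization, and the call was lost without tumour 1, 3 or 5 or adjacent sample 2, 3 or 5 (adjusted p of 0.0645 to 0.0992), with no filter on low genes (0.0528) and with the replicate block (0.0539).

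Fbp2, a fructose bisphosphatase known best from muscle (chromosome 13, 62836884 to 62858400), had 37.3, 55.2, 34.8, 40.6 and 30.1 FPKM in tumours 1 to 5, against 84.7, 83.9, 81.8, 84.7 and 71.0 FPKM in adjacent samples 1 to 5. The groups did not overlap and the log2 change was -1.04 (SE 0.14, limma adjusted p = 7.18e-05), with tumour 2 the highest tumour. Fbp1, the liver and kidney isozyme next to it on chromosome 13, was scarce and higher in tumours, at 0.67 to 0.86 FPKM against 0.20 to 0.40 FPKM in adjacent samples, and in a fit without the filter its change was 0.49 (limma adjusted p = 8.53e-05). G6pc, the catalytic subunit of the liver glucose-6-phosphatase that releases free glucose, was listed at 0 in all 10 libraries.

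Within steps, most of the isozyme shares tested differed between tumour and adjacent tissue. Each isozyme's FPKM was taken as a percent of the sum of its step's members in the same library. Such a share stays the same when a whole library is multiplied by a common factor. Quantile normalization can change it, and shares were not computed on such values. In all, 26 shares were tested with an exact two-sided permutation test of 5 against 5 libraries. The smallest p this design allows is 0.00794, and 22 of the 26 shares passed an adjusted p of 0.05, with 17 to 22 when 1 library was left out. Among the 22 were the shares of Slc2a2, Eno2 and Fbp1, genes that stayed below the expression filter. Without 1 tumour 21 or 22 shares passed, and without 1 adjacent sample 17 to 19 passed. The shares of a step add up to the whole, so they do not move independently. Their count was not set against other gene families. Pck1 made up 18.3% ± 13.7 of PEP carboxykinase in tumours and 84.7% ± 1.70 in adjacent samples (SD, n = 5 each, exact permutation adjusted p = 0.0147). The SD in tumours came from tumours 2 and 4, at 27.4% and 38.0%, against 6.70% to 10.8% in the other tumours. Pfkfb3 took 41.8% ± 4.15 of the PFKFB sum in tumours and 15.9% ± 3.36 in adjacent samples, and Pfkfb4 took 14.9% ± 1.99 and 37.2% ± 2.96 (exact permutation adjusted p = 0.0147 for each). Pfkfb3 was therefore near the level of Pfkfb2, at 39.4% ± 2.84, in tumours, while in adjacent samples Pfkfb2, at 44.8% ± 4.08, and Pfkfb4 led.

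Pdk3 had the highest mean share of the pyruvate dehydrogenase kinases in tumours, at 34.6% ± 1.34 against 21.0% ± 3.48 in adjacent samples, although in tumour 5 Pdk1 led, at 38.0% against 32.6% for Pdk3. Pdk2 led in adjacent samples, with 25.7% ± 3.63 in tumours and 46.7% ± 5.23 in adjacent samples (exact permutation adjusted p = 0.0147 for both kinases). The share of Pdk1, 31.5% ± 3.98 in tumours and 29.3% ± 2.86 in adjacent samples, did not pass (exact permutation adjusted p = 0.429). Eno3 made up 2.25% ± 1.13 of enolase in tumours and 13.4% ± 2.28 in adjacent samples. Ldha held 96.6% ± 1.66 of lactate dehydrogenase in tumours and 99.4% ± 0.340 in adjacent samples, so the rise of Ldhb moved a small part of the step. Hk3 held 3.87% ± 1.04 of hexokinase in tumours and 0.421% ± 0.231 in adjacent samples. The shares of Hk1, at 36.8% ± 5.26 and 46.3% ± 6.04, and of Hk2, at 59.3% ± 5.95 and 53.3% ± 6.16, did not pass (exact permutation adjusted p = 0.0538 and 0.198), although that of Hk1 passed without tumour 5, adjacent sample 2 or adjacent sample 3 (0.0326 to 0.0364).

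Pfkl took 58.3% ± 9.78 of phosphofructokinase in tumours and 48.5% ± 2.22 in adjacent samples, and Pfkp 38.0% ± 10.4 and 49.1% ± 2.28 (exact permutation adjusted p = 0.0375 and 0.0295). The call for Pfkp was lost without any 1 of the adjacent samples (0.0590 to 0.0983), and that for Pfkl without any of these or tumour 5 (0.0563 to 0.120). Without 1 adjacent sample the difference for Pfkp was -11.7 to -10.4 points, against -11.1 points with all libraries.

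**Figure D3:**
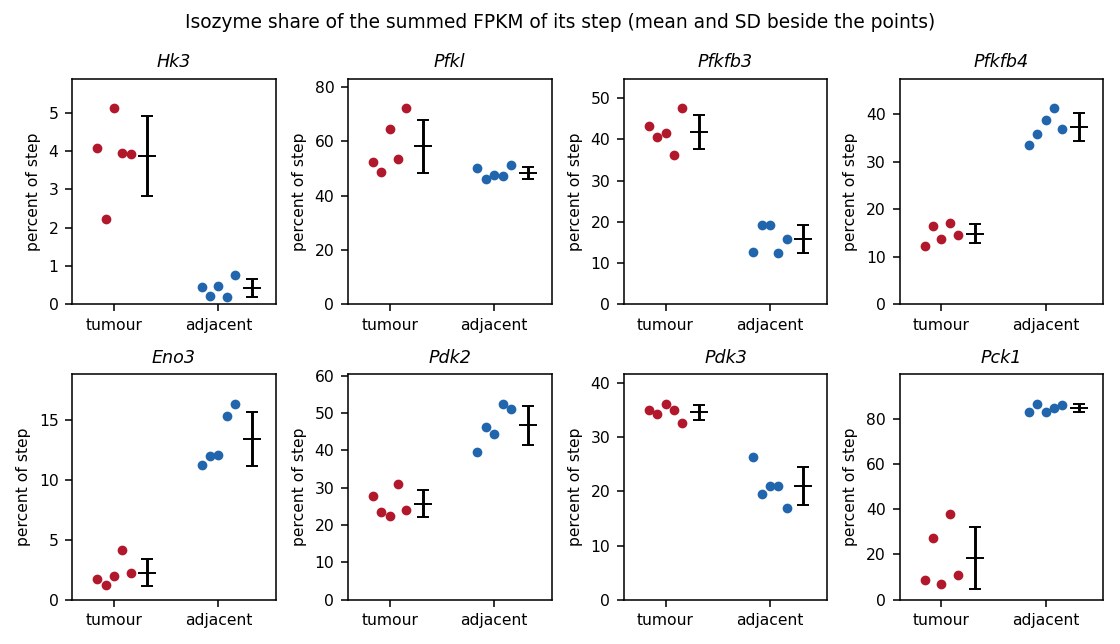
Share of 8 isozymes in the summed FPKM of their step, in percent, per library, tumours in red on the left and adjacent samples in blue on the right, with mean and SD beside the points. Hk3, Pfkfb3 and Pdk3 sit higher and Pfkfb4, Pdk2, Eno3 and Pck1 lower in every tumour than in every adjacent sample, while the Pfkl shares overlap.

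Summed by step, hexokinase was at 82.8 ± 28.0 FPKM in tumours against 151 ± 18.2 FPKM in adjacent samples, with tumour 2, at 128 FPKM, just above the lowest adjacent sample, at 126 FPKM. Phosphofructokinase summed to 91.3 ± 10.6 and 134 ± 12.0 FPKM, and PFKFB to 33.5 ± 3.47 and 37.1 ± 2.38 FPKM, with overlap between the groups. PEP carboxykinase summed to 14.3 ± 0.990 FPKM in tumours and 61.9 ± 5.22 FPKM in adjacent samples, and fructose bisphosphatase to 40.4 ± 9.47 and 81.5 ± 5.77 FPKM. The pyruvate kinase sum was 720.1 ± 78.7 FPKM in tumours and 603 ± 85.1 FPKM in adjacent samples, the enolase sum 540.5 ± 77.8 and 575 ± 73.6 FPKM. These sums were not tested. All 37 genes together made up 1.08% to 1.29% of the total FPKM in tumours and 1.09% to 1.41% in adjacent samples, so the ranges overlapped.

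**Figure D4:**
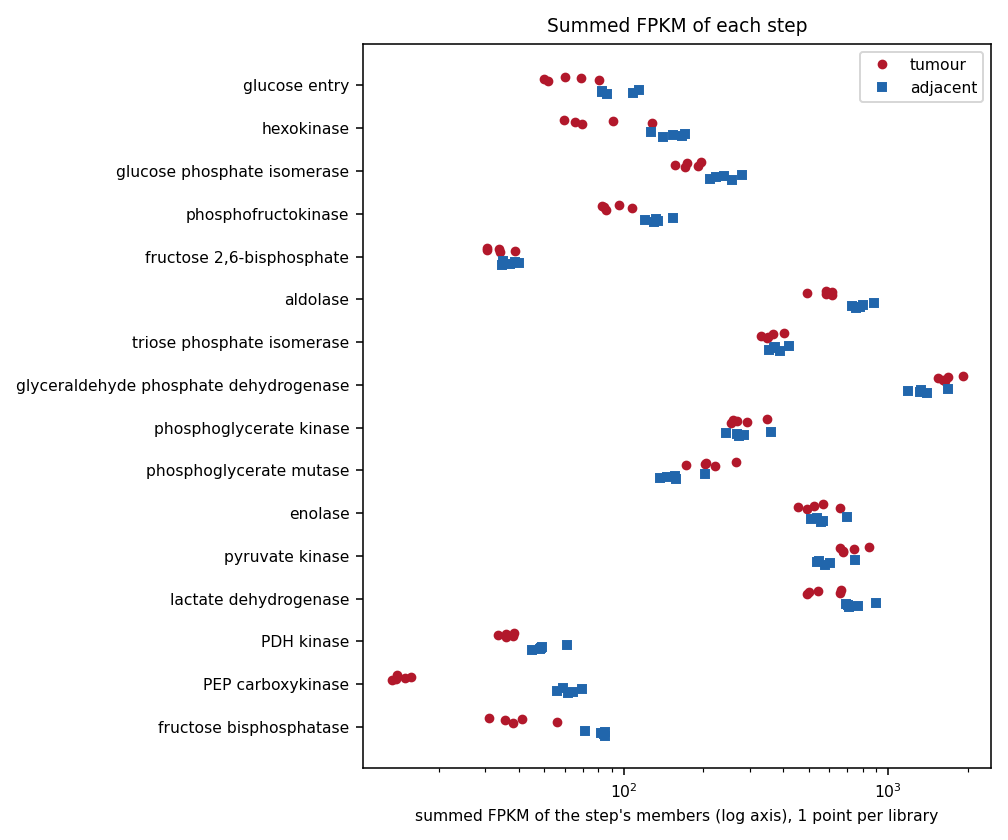
Summed FPKM of each step's members on a log axis, 1 point per library, with tumours (red circles) drawn above adjacent samples (blue squares) in each row. PEP carboxykinase and fructose bisphosphatase show separate groups, at 13.3 to 15.7 against 55.8 to 69.3 FPKM and 31.0 to 55.9 against 71.4 to 84.9 FPKM, while the triose, enolase and pyruvate kinase rows overlap.

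The libraries also differed within groups. Of the 15 members called lower, tumour 2 was the highest tumour in 7, and tumours 4 and 5 in 4 each, so that tumours 1 and 3 were the highest in none. Tumour 2 lay close to adjacent tissue for Hk2, Slc2a1 and Pfkp. Adjacent sample 5 was the highest adjacent sample for 20 of the 33 members tested, among them Gapdh, Aldoa, Pkm, Ldha and Eno3. It also had the highest red blood cell, neutrophil and enteric neuron and glia marker sums of the adjacent samples, at 380.4, 352 and 15.4 FPKM, and its part in the results was not tested beyond the fits that left it out. The counts of the highest library were not made over all genes tested, so they are not shown to be particular to the members.

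Beside the core enzymes, lists of neighbouring pathways were described by counts and medians. For comparison, 57.2% of all genes tested were higher and 19.3% lower as deposited, with a median of 0.35. These shares were 34.5% and 33.3% with medians subtracted, and 36.6% and 30.2% after quantile normalization. Of the other glucose and fructose carriers, 6 of 9 were tested, with 2 higher, 2 lower and a median of -0.09. Slc5a1, the sodium-coupled glucose carrier of the brush border, had 16.8 ± 2.90 FPKM in tumours and 44.3 ± 4.84 FPKM in adjacent samples, a change of -1.36 (SE 0.12, limma adjusted p = 1.73e-05), and Slc2a10 fell by 0.77. Slc2a6 and Slc2a4, the insulin-regulated carrier GLUT4, rose by 0.56 and 0.42, and neither passed with medians subtracted or after quantile normalization, where 4 genes of the list were lower. Slc2a4 averaged 1.32 FPKM in tumours and 0.734 FPKM in adjacent samples, and passed the expression filter through its tumour values. Other glycolytic enzymes and isozymes were tested for 10 of 17 genes, with 3 higher, 5 lower and a median of -0.11. Hkdc1, a hexokinase-like gene, fell by 1.21. It averaged 0.264 FPKM in tumours and 1.95 FPKM in adjacent samples, and passed the expression filter through its adjacent values. Pgm2l1, which makes glucose 1,6-bisphosphate, rose by 2.17 (22.5 ± 9.48 against 3.93 ± 1.60 FPKM), and Adpgk, an ADP-dependent glucokinase, by 0.95.

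In the glucose-6-phosphatase system, with 5 of 6 genes tested, Slc37a3 rose by 0.45 while Slc37a2 and Slc37a1 fell by 2.16 and 1.42, and the median was -0.06. These 3 are members of the sugar-phosphate exchanger family. With medians subtracted Slc37a3 was 0.12 and did not pass (adjusted p = 0.178). Without tumour 2, G6pc3, a glucose-6-phosphatase catalytic subunit, was higher too (adjusted p = 0.0193). The pentose phosphate pathway is the branch from glucose 6-phosphate that makes NADPH and ribose. It had 4 of 10 tested genes (40%) higher and 1 (10%) lower, against 57.2% and 19.3% of all genes. Its median was 0.17, against 0.35 for all genes. G6pdx, its rate-limiting dehydrogenase, had 47.9, 48.1, 54.5, 51.3 and 60.6 FPKM in tumours 1 to 5, against 37.8, 26.7, 33.3, 34.5 and 38.4 FPKM in adjacent samples 1 to 5. It rose by 0.61 (SE 0.11, limma adjusted p = 0.000367) without overlap, as did H6pd, the dehydrogenase of the endoplasmic reticulum, by 1.04, while the ribokinase Rbks fell by 0.91. With medians subtracted the pathway had 2 genes higher and 3 lower, and after quantile normalization 5 and 2. The number of lower genes was 3 without tumour 2 and 2 without adjacent sample 5.

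Of the genes that carry pyruvate into mitochondria or use it there, 6 of 11 (54.5%) were lower and 2 (18.2%) higher, with a median of -0.28. Of all genes, 19.3% were lower and 57.2% higher. Without tumour 2, 4 of these 11 were higher. Pcx, pyruvate carboxylase, which supplies oxaloacetate to gluconeogenesis and the tricarboxylic acid cycle, had 8.76 ± 1.97 FPKM in tumours and 34.9 ± 7.71 FPKM in adjacent samples, a change of -1.87 (SE 0.18, limma adjusted p = 1.9e-05). The mitochondrial pyruvate carrier subunits Mpc1 and Mpc2 fell by 0.52 and 0.63, Mpc1 to 64.8 ± 9.97 FPKM in tumours against 92.6 ± 3.77 FPKM in adjacent samples. Pdp1, a phosphatase that reactivates pyruvate dehydrogenase, and Pdhx, a structural component of the complex, rose by 0.46 and 0.35, and neither passed under the other scalings, where Pdhx was 0.014 with medians subtracted and -0.017 after quantile normalization.

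The monocarboxylate carriers moved apart, with 2 of 5 tested genes (40%) higher and 3 (60%) lower, against 57.2% and 19.3% of all genes. Slc16a3 encodes MCT4, the exporter of lactate from glycolytic cells, and had 92.5, 39.8, 62.9, 66.3 and 77.5 FPKM in tumours 1 to 5, against 17.8, 16.2, 15.6, 14.2 and 49.5 FPKM in adjacent samples 1 to 5. Only adjacent sample 5 reached above the lowest tumour, tumour 2, and the change was 1.66 (SE 0.34, limma adjusted p = 0.00113). Slc16a1, which encodes MCT1, the carrier that takes up butyrate and lactate, had 14.9 ± 5.16 FPKM in tumours and 66.1 ± 11.9 FPKM in adjacent samples, a change of -2.12 (SE 0.20, limma adjusted p = 2.13e-05). Slc5a8, the sodium-coupled butyrate and lactate carrier, fell by 4.07 (SE 0.40, limma adjusted p = 2.35e-05), and Emb, a chaperone subunit of monocarboxylate carriers, rose by 1.28.

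**Figure D5:**
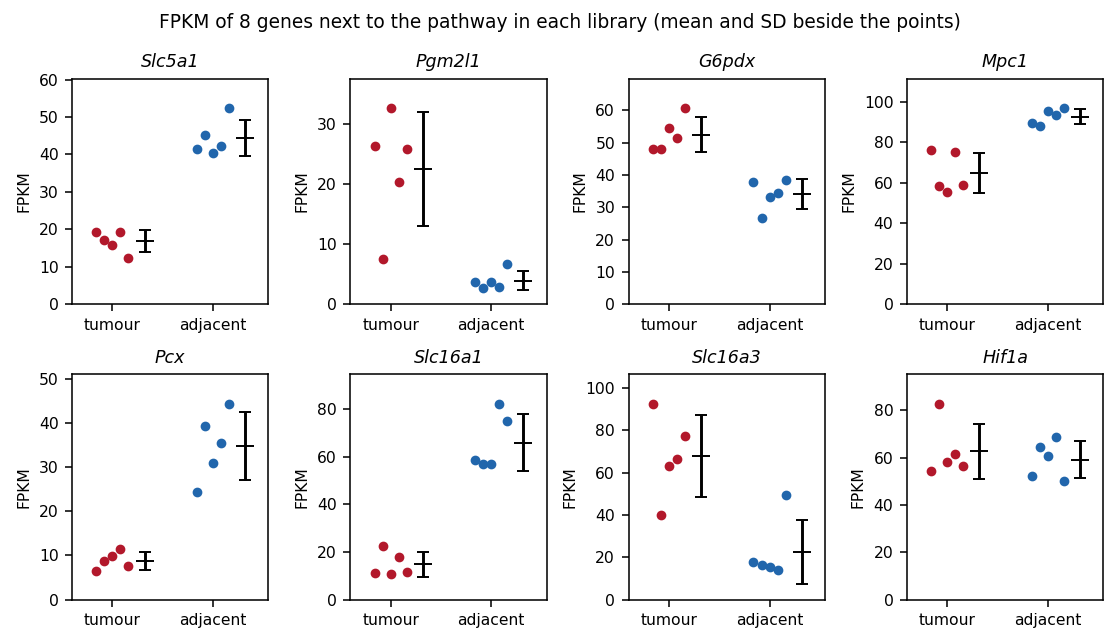
FPKM of 8 genes next to the pathway in each library, tumours in red on the left and adjacent samples in blue on the right, libraries 1 to 5 from left to right, with mean and SD beside the points and linear axes from 0. Slc5a1, Mpc1, Pcx and Slc16a1 are lower and Pgm2l1 and G6pdx higher in every tumour than in every adjacent sample; Slc16a3 and Hif1a overlap.

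Of 22 hypoxia response genes, all tested, 4 (18.2%) were higher, 5 (22.7%) lower and 13 did not pass, against 57.2% higher and 19.3% lower of all genes. The median was 0.08, against 0.35 for all genes. Hif1a, the inducible subunit of HIF1, had 62.7 ± 11.6 FPKM in tumours and 59.2 ± 7.85 FPKM in adjacent samples, a change of 0.08 (SE 0.13, limma adjusted p = 0.594), and it is known to be controlled largely at the protein level. The list did not move as a block: Ddit4, a stress-induced inhibitor of mTORC1, and P4ha2, a collagen prolyl hydroxylase, each rose by 1.42, while Higd1a, a mitochondrial protein, and Car9, a carbonic anhydrase, fell by 1.50 and 1.22. With medians subtracted 3 of the 22 were higher and 13 lower, and after quantile normalization 3 and 9. Glycogen genes had 4 of 9 tested (44.4%) higher, 3 (33.3%) lower and a median of 0.14, against 57.2% and 19.3% of all genes. Under either other scaling, 1 was higher and 4 were lower. Pygl, the liver glycogen phosphorylase, rose by 0.98 and the lysosomal glucosidase Gaa by 0.44, while Ppp1r3b, which targets a phosphatase to glycogen, and Ugp2, which makes UDP-glucose, fell by 1.11 and 0.78. Gaa did not pass with medians subtracted or after quantile normalization (adjusted p = 0.447 and 0.139).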

How the data were processed

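RNA was profiled in 5 tumours and 5 adjacent samples. Per the labels' protocols, oligo-dT beads captured the mRNA, and TruSeq RNA v2 libraries were run on an Illumina HiSeq. Per the submitters' processing notes, the tools were Cufflinks 2.2.1, TopHat2 2.1.0, Salmon 0.8.2, RSEM 1.2.15, DESeq2 1.14.1, edgeR 3.16.5 and GATK, with build mm10. The tool behind the expression table was not given in the sources used here. Values are FPKM per gene as deposited by the authors, and a gene's FPKM falls when other genes take more of a library. Of 24525 genes, 4792 were at 0 everywhere; 1 line of text was left out. At least 17741 genes differed between any pair of libraries.

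The 13016 genes averaging 1 FPKM or more were fitted on the log2(FPKM + 1) scale in limma 3.58.1 (R 4.3.3), with group alone in the model and trended, robust empirical Bayes. P-values were two-sided, adjusted by Benjamini-Hochberg over all these genes, with a threshold of 0.05. Log2 changes run tumour minus adjacent, and low genes change by more than this scale shows. The fit was tested on simulated data first. Depth came from genes with 1 annotated transcript of 400 to 1500 bases and values under 0.2 FPKM, 217 to 286 values per library. Counting intervals were not computed. Isozyme shares were compared with exact permutation tests, adjusted over 26 shares. Alternatives were pseudocounts of 0.1 and 5, no filter, medians subtracted, quantile normalization, plain empirical Bayes, a replicate block, each library left out, and, chosen after seeing the data, tumours 2 and 4 left out. Shared sequence is the percent of a gene's 50-base transcript stretches that occur in transcripts of other genes. Coordinates are from the RefSeq annotation of GRCm38.p6. Every member past the filter is named; of each neighbouring list, up to 2 genes with the largest rise and 2 with the largest fall past the threshold, plus Hif1a, Slc16a1, Slc16a3 and Mpc1; 1 gene these rules name, with the alternative that used it, is not reported here. Members and lists were chosen with earlier results of these data known. The protein data were not used here.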

Additional observations from a re-analysis of the deposited data

Results flagged for a closer look

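In 3 of 66 groups of 5 libraries (33 members, 2 groups each), 1 sample stood apart from the other 4 by Dixon's test, at a gap of more than 0.71 of the group's range. Chance alone flags about 1 in 20 such groups. Hk1 was 84.1 FPKM in adjacent sample 4, against 67.8 FPKM in the next highest, a gap of 0.736 of the range. Aldoc was 15.3 FPKM in adjacent sample 5, with the next at 9.42 FPKM (0.812 of the range). Fbp2 was 71.0 FPKM in adjacent sample 5, below the next lowest at 81.8 FPKM (0.784 of the range). Without the sample that stood apart, Hk1, Aldoc and Fbp2 still passed the threshold in the same direction. No tumour stood apart for any member by this test.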

How the results depend on the processing

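The scaling of the libraries moved the counts most. With library medians subtracted, 4 members were higher, 4486 of all genes were higher and 4329 lower, and 10 neighbouring genes were higher and 43 lower, against 12, 7442, 2509, 22 and 27 as deposited. After quantile normalization, 4759 of all genes were higher, 3934 lower and 14 neighbouring genes higher. The cause was not tested. Signs turned with medians subtracted for Pfkm (-0.25), Gapdh (-0.049), Eno1 (-0.23), Pkm (-0.043), Pdk3 (-0.086), Pck2 (-0.061) and Hif1a (-0.25), and after quantile normalization for Pfkm (-0.42), Tpi1 (0.13), Pgk1 (0.17), Pdk3 (-0.085), Pck2 (-0.071) and Pdhx (-0.017). Genes near 0 also turned elsewhere: Eno1b was 0.33 with a pseudocount of 0.1 and 0.12 without tumours 2 and 4, where Pgk1 was 0.021 and Hif1a -0.059. The log2 ratio of Eno1b to the other enolases differed by 0.41.

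Leaving out 1 library gave 8 to 12 members higher and 12 to 14 lower, 7063 to 7625 of all genes higher and 2324 to 2605 lower, 20 to 25 neighbouring genes higher and 26 to 30 lower, and 17 to 22 shares past the threshold. Of the 27 member calls, 20 held in all 10 such fits. Pgk1 ranged from -0.083 to 0.080, Eno1b from -0.99 to 0.63, the Eno1b share difference from -2.40 to 1.80 points, and Hif1a was -0.027 without tumour 2.

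Like-numbered tumour and adjacent libraries did not deviate together in every pair, with correlations of 0.0231, 0.321, 0.0223, 0.161 and 0.422, and only numbers 2 and 5 matched best with their own number, and the labels call the tissue matched without saying that the number marks an animal, so the main comparison was left unpaired. With the replicate block, 11 members were higher and 16 lower, against 57.9% and 19.5% of all genes. Pklr then passed (limma adjusted p = 0.0433), Pck2 did not (0.0539), and 31 of 33 members kept their side of the threshold. Members under 1 FPKM rest on few fragments, values of genes with close copies depend on read assignment, and spliced forms are not separated.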
